A study of Mus musculus with 4 samples.

Results

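Granulocyte precursors of the mouse fetal liver were defined here as cells that carried transcripts of both the neutrophil elastase gene Elane and the myeloperoxidase gene Mpo. A barcode of either fetal liver library was kept with at least 500 detected genes and at most 10% of its unique molecular identifiers (UMIs, 1 per captured transcript) from mitochondrial genes. It was a precursor with at least 2 Elane UMIs, at least 5 Mpo UMIs and at most 1 UMI of the basophil protease gene Mcpt8. This chose 417 of 22343 kept fetal liver barcodes, of 31153 kept in the whole series. At E14.5 there were 160 among 11702 kept barcodes, or 1.37% (exact 95% interval 1.17 to 1.59). At E13.5 there were 257 among 10641, or 2.42% (2.13 to 2.73). In embryonic periphery the same rule took 0 of 4505 barcodes at E14.5, which allows a share of up to 0.0666% at 3 counts (exact 95% upper limit 0.0819%), and 1 of 4305 at E13.5. That single periphery barcode held 64 Mpo and 2 Elane UMIs beside 14 UMIs of the mast cell gene Cpa3, and it was not used further.

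The series followed the ontogeny of lymphoid tissue inducer cells in C57BL/6J embryos with droplet single-cell RNA sequencing. Cells were enriched with CD45 beads and then sorted as live CD45+ F4/80- IL7Ra+ cells, so every group shared a gate on the interleukin-7 receptor. The groups were fetal liver at E14.5 and fetal liver at E13.5, each 1 library made with version 3 of the 10x Chromium 3' kit, with periphery of both stages made with version 2. Whether embryos were pooled is not given in the sources used here. With 1 library per stage there is no replicate, so every stage difference describes these libraries, no test was made, and intervals cover counting error only.

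Neutrophils form in the fetal liver from granulocyte and monocyte progenitors. The first granules to be packed, the primary or azurophil granules of the promyelocyte, hold myeloperoxidase and a family of serine proteases that are stored active next to the proteoglycan serglycin. Secondary, or specific, granules with cathelicidin, lipocalin-2 and lactoferrin follow at the myelocyte stage under the factor C/EBP epsilon, when the primary granule genes are switched off. The factor IRF8 favours the monocyte and dendritic fate from the same progenitors, and GFI1 the granulocyte fate.

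The promoters of the 4 genes whose transcripts carried most of the results are given first, because these genes stand together in the precursors and 3 of the 4 code for related serine proteases. Each window runs from 250 bases before to 50 bases after the transcription start, 5′ to 3′ on the strand of the gene, from RefSeq on GRCm38.p6. The windows are chr10:79886062-79886361 on the plus strand for Elane, chr14:56102525-56102824 on the minus strand for Ctsg, chr10:79879417-79879716 on the plus strand for Prtn3 and chr11:87793534-87793833 on the plus strand for Mpo. Capitals mark matches to GAGGAA, a core bound by PU.1 and other Ets factors, and, in Ctsg only, to the Runx core TGTGGT and the TATA motif TATAAA, which lie there on the opposite strand and read ACCACA and TTTATA.
Elane: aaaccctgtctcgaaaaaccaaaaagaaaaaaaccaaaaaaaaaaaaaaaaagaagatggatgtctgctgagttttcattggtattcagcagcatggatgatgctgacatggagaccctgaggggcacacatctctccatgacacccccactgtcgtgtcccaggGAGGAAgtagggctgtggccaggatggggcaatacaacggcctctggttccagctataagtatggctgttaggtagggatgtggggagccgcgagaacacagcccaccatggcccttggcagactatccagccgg
Ctsg: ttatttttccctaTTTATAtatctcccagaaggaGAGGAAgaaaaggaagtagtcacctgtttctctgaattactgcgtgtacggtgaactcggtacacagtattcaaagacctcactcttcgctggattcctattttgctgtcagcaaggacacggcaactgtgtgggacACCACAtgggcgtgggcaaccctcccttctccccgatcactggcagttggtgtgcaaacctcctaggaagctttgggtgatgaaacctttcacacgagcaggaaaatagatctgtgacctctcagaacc
Prtn3: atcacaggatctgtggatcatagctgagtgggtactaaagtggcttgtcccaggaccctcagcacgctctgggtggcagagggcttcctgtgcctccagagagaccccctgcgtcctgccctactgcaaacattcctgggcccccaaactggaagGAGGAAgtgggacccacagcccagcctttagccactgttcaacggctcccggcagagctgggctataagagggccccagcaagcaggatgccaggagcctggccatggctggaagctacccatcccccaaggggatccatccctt
Mpo: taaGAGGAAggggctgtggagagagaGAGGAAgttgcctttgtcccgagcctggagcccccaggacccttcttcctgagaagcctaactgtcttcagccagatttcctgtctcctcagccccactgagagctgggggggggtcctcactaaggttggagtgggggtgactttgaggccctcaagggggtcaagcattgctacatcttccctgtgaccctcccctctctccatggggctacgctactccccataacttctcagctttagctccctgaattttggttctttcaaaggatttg
Searched on both strands, GAGGAA was found in all 4 windows, at -85 in Elane, -216 in Ctsg, -95 in Prtn3 and at both -247 and -224 in Mpo, counted from the start site. No match to the C/EBP pattern TTNNGNAA was found in the 4 windows, and shorter C/EBP half-sites were not searched. The motifs are common: among 32851 RefSeq promoters of this length, GAGGAA was present in 28.3%, TGTGGT in 16.8%, TATAAA in 13.6% and TTNNGNAA in 40.7%. None of the searched motifs overlapped another in these windows, and a match describes letters only.

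On GRCm38, Elane (chr10:79886247-79888215), Prtn3 (chr10:79874476-79883174) and Prss57 (chr10:79781474-79790961) are neighbours on chromosome 10. Ctsg lies at chr14:56099881-56102574 and Mpo at chr11:87793581-87804413. Levels below are the UMIs of a gene summed over the precursors of a library, scaled to the depth of those precursors as CPM. The precursors held 3536141 UMIs at E14.5 and 5787311 at E13.5. Their median depth was 19306 UMIs (range 902 to 58185) at E14.5 and 20694 (2012 to 66219) at E13.5, against 16231.5 and 18688 over all kept barcodes of the same libraries. The median mitochondrial share of the precursors was 3.83% at E14.5 and 4.94% at E13.5. The libraries as a whole held 208229937 UMIs at E14.5 and 212034840 at E13.5, and 27 kept barcodes occurred in both, 1 of them a precursor and 0 a precursor in both.

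The values that chose the cells set the edges of the group. Of the barcodes with at least 5 Mpo UMIs, 3357 at E14.5 and 5225 at E13.5, most had no Elane UMI, namely 2489 at E14.5 and 4762 at E13.5. Just inside the limit, 8 barcodes at E14.5 and 18 at E13.5 had 2 Elane UMIs, and their median Mpo was 44 and 75 UMIs in that order of stages. Just outside, 93 barcodes at E14.5 and 146 at E13.5 had 1 Elane UMI, with a median of 16 and 26 Mpo UMIs. Cells just inside carried more Mpo than those just outside, but both genes are values of the rule, so this supports nothing about the limit. The median depth was 26503 and 27018.5 UMIs just inside, against 23319 and 26341 UMIs just outside. The limit on Mcpt8 removed 10 barcodes at E14.5 and 3 at E13.5.

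The label of granulocyte precursors was checked on markers beyond Elane and Mpo. The azurophil protease proteinase 3 (Prtn3) had a UMI in 100% of the precursors at both stages. Of the barcodes counted above without an Elane UMI, 82.6% at E14.5 and 87.3% at E13.5 had one too. Detection of Prtn3 thus hardly set the precursors apart from them. The medians were 192.5 and 148 Prtn3 UMIs in precursors, against 4 and 5 in those barcodes. Ms4a3, a membrane gene of granulocyte and monocyte progenitors, had 1010 CPM at E14.5 and 791 CPM at E13.5, against 1.86 and 1.48 CPM in all other kept barcodes. Cebpe, the C/EBP epsilon gene of granulocyte maturation at chr14:54710360-54712174, had 191 and 268 CPM against 0.201 and 0.680 CPM. These 2 genes were nearly absent from the rest of the sort, and both were found at E14.5 and at E13.5.

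Of the 14 late neutrophil genes 9 had a UMI at each stage, and the list summed to 3710 CPM at E14.5 and 5773 CPM at E13.5, much of it from S100a8 and S100a9. The other 5, Mmp9, Retnlg, Fpr1, Fpr2 and Ly6g, which code for the gelatinase MMP9, a resistin-like protein, both formyl peptide receptors and the neutrophil surface antigen Ly6G, had no UMI in any precursor of either stage. Lactoferrin (Ltf) had 0.566 CPM at E14.5 and 0.518 CPM at E13.5. By these markers the cells carried early granulocyte genes and lacked several of the mature neutrophil, and some of them carried genes of other lineages, described below.

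Among the 20 genes that led the precursors over all other kept barcodes, ranked by the lower of both stages, were Elane, Ctsg, Prtn3 and Mpo of the primary granule, and S100a8 and S100a9, the subunits of calprotectin. Also among them were the stefin genes Stfa1, BC100530 and Gm5483, the haptoglobin gene Hp, the protease inhibitor gene Slpi, the lysozyme gene Lyz2, the cathelicidin gene Camp and Prg2, the eosinophil major basic protein gene. Elane led with log2 folds of 9.26 at E14.5 and 8.22 at E13.5. Mpo was less particular to them, with log2 folds of 4.14 and 3.95, and other kept barcodes also held 356 and 593 CPM. At least 2-fold higher in the precursors were 348 of 6044 genes at E14.5 (5.76%) and 375 of 6110 at E13.5 (6.14%). These values describe what the rule selected and carry no test. The stefin genes are near-identical copies, so reads may be split among them.

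**Figure D1:**
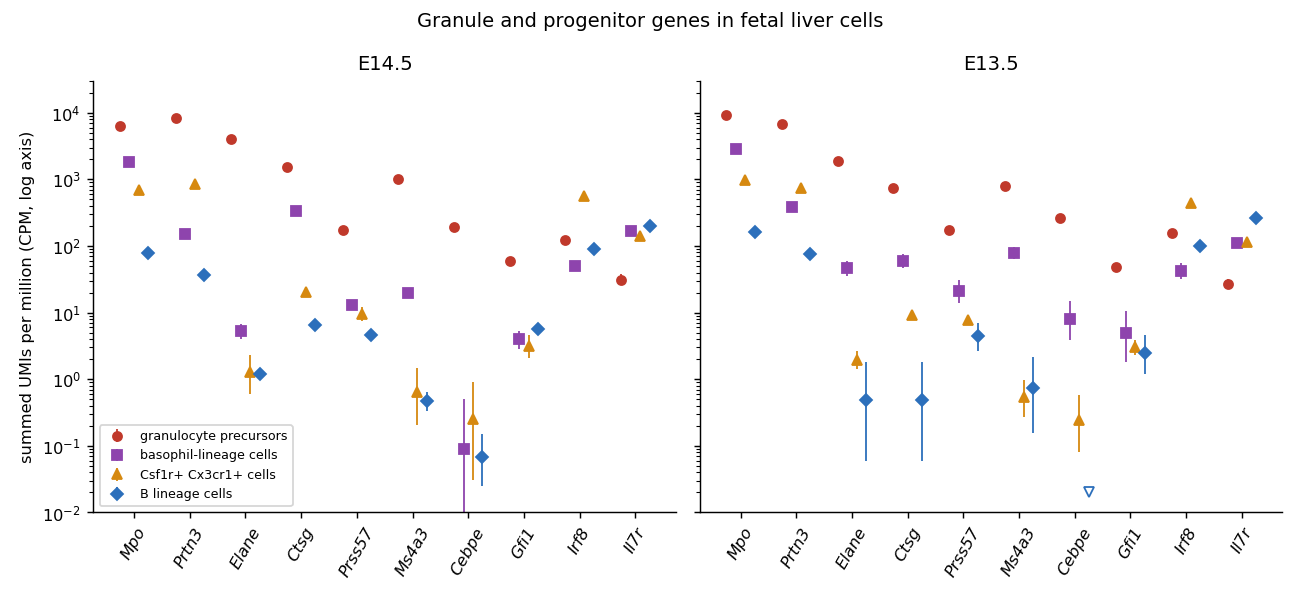
Summed UMIs as CPM on a log axis for 10 genes in 4 kinds of fetal liver cell at E14.5 (left) and E13.5 (right), with exact Poisson 95% intervals as bars and an open triangle for a gene without a UMI. The precursors stand above the other cells for Mpo, Prtn3, Elane, Ctsg, Prss57, Ms4a3, Cebpe and Gfi1 at both stages, and lowest for Il7r.

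Beside the gate, Il7r was low in these cells. It had 31.4 CPM at E14.5 and 27.3 CPM at E13.5, against 191 and 154 CPM in all other kept barcodes. A UMI of Il7r was found in 28.8% of the precursors at E14.5 and 19.8% at E13.5, against 84.4% and 80.5% of other kept barcodes. With every cell thinned to 8000 UMIs the shares in precursors were 11.4% and 11.6%, against 75.3% and 81.6% in B lineage cells. Sorting was on the surface protein, which these data do not measure. The transcript of the F4/80 gene Adgre1, whose protein was gated out, had a UMI in 16.9% of precursors at E14.5 and 29.2% at E13.5, against 4.43% and 2.47% of other kept barcodes. After thinning the shares in precursors were 8.05% and 15.2%.

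Precursors with an Il7r UMI stood apart in depth. They numbered 46 at E14.5 and 51 at E13.5, with a median of 31745 and 33283 UMIs, against 17634 and 18987.5 UMIs in precursors without one. Scrublet, which scores barcodes by their likeness to simulated doublets, marked 32.6% of them at E14.5 and 39.2% at E13.5, against 4.39% and 2.91% of precursors without an Il7r UMI. Over all precursors it marked 20 cells (12.5%) at E14.5 and 26 cells (10.1%) at E13.5, against 7.43% and 3.93% of all kept barcodes. Marked barcodes were kept in the values given here, and the part of doublets in the Il7r values was not tested.

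The primary granule genes differed between the stages in unequal directions. Elane and Ctsg were higher at E14.5, Prtn3 was slightly higher, Prss57 was alike and Mpo was lower. Folds are on the log2 scale of CPM plus 5, E14.5 over E13.5, minus the median of all 5690 genes with at least 20 CPM at either stage, a median of 0.00256. Past 2-fold is used as a mark of size and not of significance. In all, 22 genes were past 2-fold higher at E14.5, or 0.387% of those measured, and 16 past 2-fold lower, or 0.281%. Of the 5 primary granule genes, all measured at both stages, 2 were past 2-fold higher and 0 past 2-fold lower.

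Elane, the gene of neutrophil elastase, had 2 to 332 UMIs per cell with a median of 77.5 at E14.5, against 2 to 241 with a median of 28 at E13.5. Summed, this was 14343 UMIs or 4056 CPM at E14.5, against 10944 UMIs or 1891 CPM at E13.5, a log2 fold of 1.10 (1.06 to 1.13). The middle of the E14.5 cells lay higher, while the ranges of single cells overlapped widely. In the other kept barcodes Elane had 1.61 CPM at E14.5 and 1.35 CPM at E13.5, a log2 fold of 0.08. The rule itself took most barcodes with 2 or more Elane UMIs out of that group. That fold therefore cannot show whether the stage difference was limited to the precursors. In B lineage cells, which should lack the gene, 2.21% had an Elane UMI at E14.5 and 0.833% at E13.5.

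Ctsg, the gene of the protease cathepsin G, had 0 to 123 UMIs per cell with a median of 33 at E14.5, against 0 to 109 with a median of 6 at E13.5. Summed levels were 1531 CPM at E14.5 and 745 CPM at E13.5, a log2 fold of 1.03 (0.97 to 1.09). A Ctsg UMI was found in 95% of precursors at E14.5 and 67.3% at E13.5, and after thinning to 8000 UMIs in 90.6% and 62.4%, against 1.52% and 0% of thinned B lineage cells. The lower quartile was 12 UMIs at E14.5 and 0 UMIs at E13.5, so a group of precursors without Ctsg stood out at the earlier stage. The stage difference was not limited to the precursors: log2 folds of Ctsg were 2.43 in basophil-lineage cells, 1.73 in all other kept barcodes, 1.08 in B lineage cells and 0.83 in Csf1r+ Cx3cr1+ cells. Basophil-lineage cells themselves numbered 727 at E14.5 and 59 at E13.5, and RNA released from other cells was not measured separately.

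Mpo, which makes hypochlorous acid from hydrogen peroxide and chloride, had 6 to 391 UMIs per cell with a median of 138.5 at E14.5, against 6 to 566 with a median of 201 at E13.5. Its summed level was 6386 CPM at E14.5 and 9215 CPM at E13.5, a log2 fold of -0.53 (-0.55 to -0.51). The same direction was found in Csf1r+ Cx3cr1+ cells (-0.49), basophil-lineage cells (-0.67), B lineage cells (-0.99) and all other kept barcodes (-0.71). Prtn3 had 2 to 433 UMIs per cell with a median of 192.5 at E14.5, against 13 to 491 with a median of 148 at E13.5. Its levels of 8399 CPM at E14.5 and 6796 CPM at E13.5 gave a log2 fold of 0.30. Prss57, a further serine protease of the azurophil granule, had 176 CPM at E14.5 and 175 CPM at E13.5, a log2 fold of 0.01.

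Within single cells the balance of Elane to Mpo shifted accordingly. The ratio of Elane to Mpo UMIs had a median of 0.536 at E14.5 and 0.156 at E13.5. Its 10th and 90th percentiles were 0.0909 and 1.44 at E14.5, against 0.0358 and 0.534 at E13.5. More Elane than Mpo UMIs were found in 36 of 160 cells (22.5%, interval 16.3 to 29.8) at E14.5 and in 7 of 257 cells (2.72%, 1.10 to 5.53) at E13.5. Since Elane and Mpo also chose the cells, the comparison was repeated, after the data had been seen, in cells chosen by at least 20 Prtn3 UMIs, at least 1 Ms4a3 UMI and at most 1 Mcpt8 UMI. These were 141 cells at E14.5 and 234 at E13.5, of which 136 and 220 were also precursors by the first rule. In them the log2 fold was 1.14 for Elane, 1.06 for Ctsg, 0.35 for Prtn3 and -0.48 for Mpo. Since most of these cells were the same precursors, the repeat gives no independent support. The Prtn3 fold is also that of a gene that chose the cells.

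**Figure D2:**
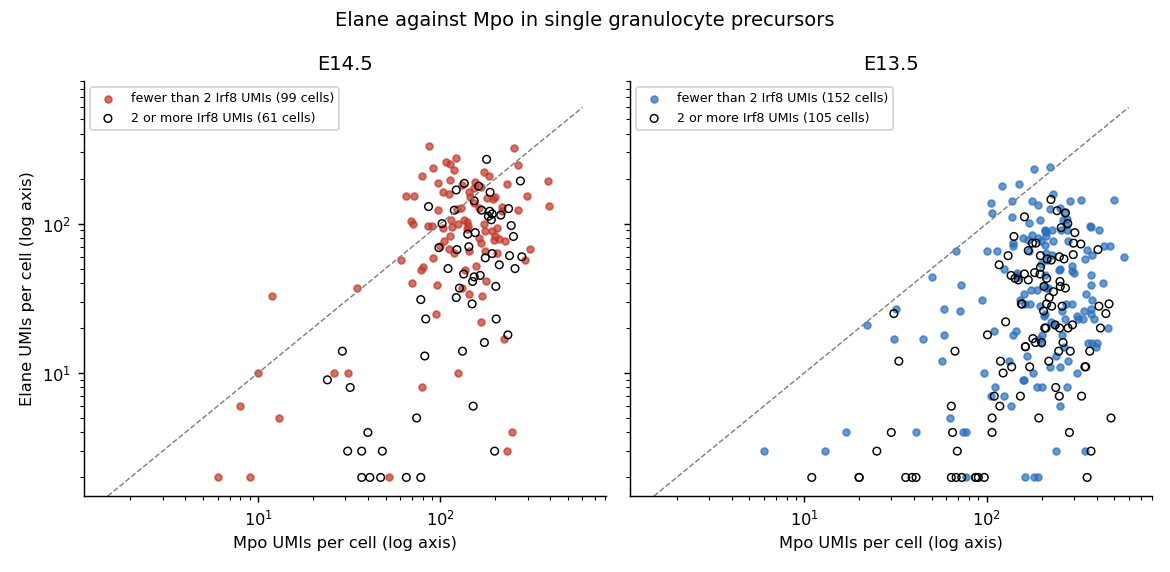
Elane against Mpo UMIs of each precursor on log axes, E14.5 left and E13.5 right, with open circles for the cells with 2 or more Irf8 UMIs (61 and 105) and a dashed line where both are equal. Cells above the line number 36 at E14.5 and 7 at E13.5, and open circles make up many of the cells with few Elane UMIs.

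The measured secondary granule genes were lower at E14.5, and they differed widely in how many cells carried them. Of 9 listed genes 4 reached 20 CPM at either stage, all 4 had lower levels at E14.5 and 3 were past 2-fold, with a median of -1.27 where all measured genes have 0. Lcn2 passed that minimum through E13.5 only, so the count and median describe and support nothing, and with no minimum the median was -0.77. Olfm4 (chr14:79984081-80023139), the olfactomedin of a subset of neutrophils, had 66.7 CPM at E14.5 and 372 CPM at E13.5, a log2 fold of -2.40 (-2.58 to -2.21). It had a UMI in 25.6% of precursors at E14.5 and 52.9% at E13.5, and after thinning in 22.8% and 48.4%. Lcn2, the iron-siderophore binder lipocalin-2, had 17.0 and 51.3 CPM (-1.36), and Camp (chr9:109847379-109849617) had 230 and 522 CPM (-1.17). Anxa1, annexin A1, was in nearly every cell, with 618 and 821 CPM (-0.41) and a UMI in 97.5% and 96.9% of precursors. In all other kept barcodes the log2 fold was 1.26 for Anxa1 and -0.16 for Olfm4. By kind of cell, Olfm4 was at -1.78 in basophil-lineage cells, -0.11 in Csf1r+ Cx3cr1+ cells and -0.05 in B lineage cells. Ngp, the neutrophilic granule protein gene, stayed under the minimum with 0.848 CPM at E14.5 and 14.51 CPM at E13.5. No UMI of Cd177 was found at either stage.

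Camp was carried by few cells. It had a UMI in 16.9% of precursors at E14.5 and 22.2% at E13.5, and a single precursor held up to 242 Camp UMIs at E14.5 and up to 730 at E13.5. Olfm4 was not limited to those cells. In precursors without a Camp UMI it had 40.4 CPM at E14.5 and 197 CPM at E13.5, with a UMI in 21.1% and 46.5% of cells. Without the precursors holding 2 or more Camp UMIs, a choice made after the data had been seen, Olfm4 was at -2.01 and Lcn2 at -0.17. With a stricter barcode filter of 1000 genes and 5% mitochondrial UMIs, which left 155 precursors at E14.5 and 136 at E13.5, the median of the list was -0.40. Under that filter Olfm4 was at -2.13, Camp at -0.48 and Lcn2 at -0.33.

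Other genes of the granulocyte path showed mostly smaller differences. Of 14 late neutrophil genes 6 were measured, 3 higher and 3 lower, with a median of -0.18. Of these 6, 1 passed the minimum through E14.5 only and 1 through E13.5 only. S100a8 had 2069 CPM at E14.5 and 2951 CPM at E13.5 (log2 fold -0.51), and S100a9 had 1420 and 2618 CPM (-0.88). In single cells both were uneven: S100a9 had a median of 1 UMI and a highest value of 811 at E14.5, against a median of 2 and a highest value of 910 at E13.5. Lyz2, lysozyme, had 325 CPM at E14.5 and 697 CPM at E13.5 (-1.09) and was past 2-fold. The stefins Stfa3 (17.3 and 71.2 CPM, -1.78) and Gm5483 (100.1 and 291 CPM, -1.498) and the antiprotease gene Slpi (250 and 526 CPM, -1.06) were past 2-fold lower as well. Of the list for granule processing and storage 2 genes were higher and 6 lower among 8, with a median of -0.17; serglycin (Srgn) had 2770 CPM at E14.5 and 2757 CPM at E13.5, and Ctsc, the dipeptidyl peptidase that activates the granule proteases, had 340 and 369 CPM.

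The regulators of the lineage differed little. All 12 listed transcription factor genes were measured, 5 higher and 7 lower, none past 2-fold, with a median of -0.15. Of these 12, 1 passed the minimum through E13.5 only. Cebpe was at -0.48, Cebpa, which starts granulocyte commitment, at -0.59 (16.7 CPM at E14.5 and 27.5 CPM at E13.5), and Cebpb at 0.23. Gfi1, the repressor of monocyte genes in granulocyte cells, had 58.8 and 49.2 CPM (0.23, interval -0.01 to 0.47), and Irf8 had 125 and 157 CPM (-0.31). Klf4, a monocyte factor, had 45.2 and 31.4 CPM (0.46). The PU.1 gene Spi1, whose protein binds the core shown in the promoters, had 344 and 385 CPM (-0.16).

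All 6 genes of the NADPH oxidase, the source of superoxide for myeloperoxidase, were measured and all 6 were lower at E14.5, by small amounts with a median of -0.25. The medians were close to it in other cells of the libraries, -0.25 in all other kept barcodes and -0.23 in both Csf1r+ Cx3cr1+ and basophil-lineage cells. Ncf1 had the largest of these, 78.9 CPM at E14.5 and 112 CPM at E13.5 (-0.48). Among 12 genes of growth factor and cytokine receptors 9 were measured, 1 higher and 8 lower, with a median of -0.21. Of these 9, 1 passed the minimum through E13.5 only. Csf3r, the receptor of granulocyte colony-stimulating factor, had 32.2 CPM at E14.5 and 38.0 CPM at E13.5. The early progenitor list had 5 genes higher and 7 lower of 12, with a median of -0.02. Cd34, a surface marker that is lost as granulocyte cells mature, was lowest among them with 174 and 313 CPM (-0.84), Ly6c2 was highest with 165 and 111 CPM (0.55), and Ms4a3 was at 0.35.

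Chaperones of the endoplasmic reticulum, where the granule proteins are folded and glycosylated, were mostly higher at E14.5. Of 14 genes 13 were measured, 10 higher and 3 lower, with a median of 0.27 and none past 2-fold. The same list had medians of 0.28 in B lineage cells, 0.21 in all other kept barcodes, 0.09 in Csf1r+ Cx3cr1+ cells and -0.19 in basophil-lineage cells. Sdf2l1 had 616 CPM at E14.5 and 445 CPM at E13.5 (0.46), Pdia3 had 1355 and 1015 CPM (0.41), and Hspa5, the chaperone BiP, had 1127 and 910 CPM (0.30). Calreticulin (Calr) was the opposite with 2391 and 2929 CPM (-0.30). Proliferation genes were present at like levels: the S phase list had 9 genes higher and 9 lower of 18 (median -0.01) and the G2 and M phase list 8 higher and 10 lower of 18 (median -0.01). Of 14 glycolysis genes 13 were measured, 3 higher and 10 lower (median -0.11). The fetal program list, which holds Lin28b, the Igf2bp genes and imprinted genes, had 4 of 10 genes measured, all lower, with a median of -0.31 beside -0.32 in all other kept barcodes. 1 of these 4 passed the minimum through E13.5 only.

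**Figure D3:**
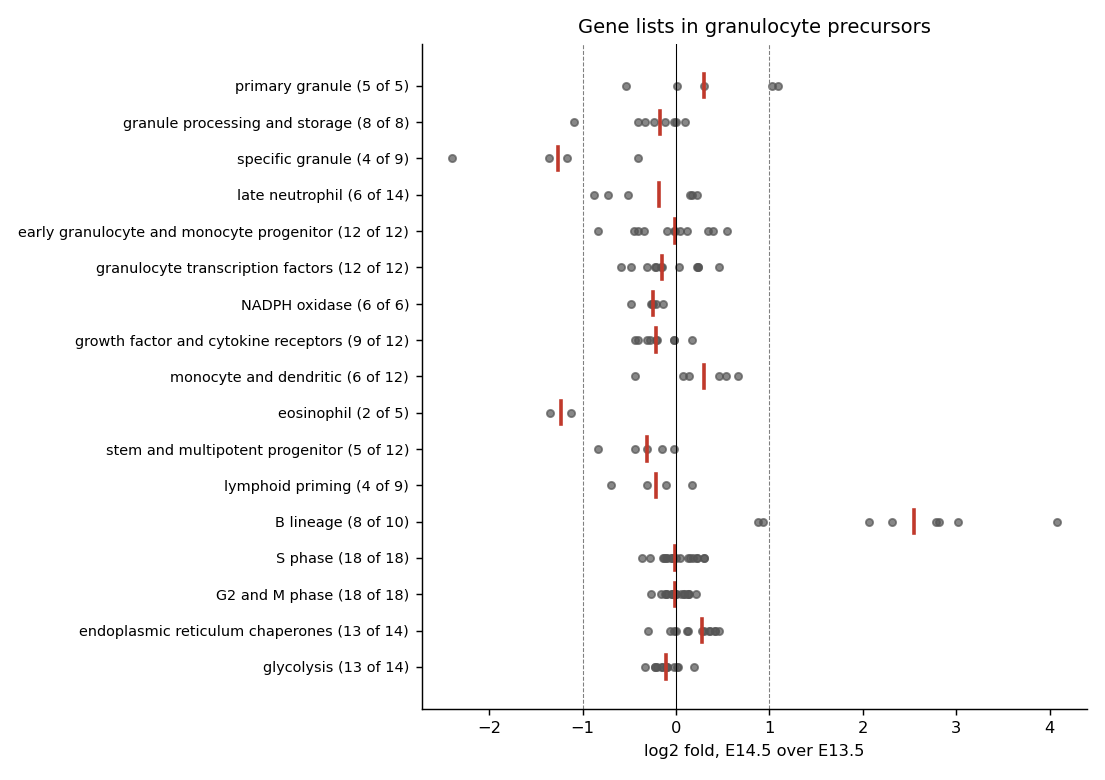
Log2 fold of each measured gene, E14.5 over E13.5, in the precursors by gene list (gray points), with the list median as a red tick, the number measured of the number listed in parentheses, and dashed lines at 2-fold. The B lineage median of 2.55 and the specific granule median of -1.27 lie past the dashed lines, as does the eosinophil median over its 2 measured genes.

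The genes with the highest stage folds were not granulocyte genes. Igll1, the surrogate light chain component lambda 5, had 191 CPM at E14.5 and 6.57 CPM at E13.5 (log2 fold 4.08), Vpreb3 had 114 and 9.68 CPM (3.02), Vpreb1 had 69.3 and 5.53 CPM (2.82) and Cd79a, a signalling chain of the B cell receptor, had 93.6 and 9.33 CPM (2.78). Ebf1, a factor of early B cell commitment, had 132 and 22.5 CPM (2.31). Cd24a, Pou2af1, Mzb1, Vpreb2, Chchd10, Blnk and Id3 completed the 12 highest, with log2 folds of 1.60 to 2.39. Of the 10 genes of the B lineage list 8 were measured, all 8 higher and 6 past 2-fold, with a median of 2.55. Since 5 of the 8 reached the minimum through E14.5 only, these values describe and support nothing. With no minimum the median was 2.21, and the list summed to 980 CPM at E14.5 and 229 CPM at E13.5.

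The same genes differed in other cells of the libraries. The log2 fold of Igll1 was 3.74 in Csf1r+ Cx3cr1+ cells, 5.28 in basophil-lineage cells, 5.04 in all other kept barcodes and 0.97 in B lineage cells. B lineage cells numbered 4489 at E14.5 and 240 at E13.5. A UMI of Igll1 was found in 35.6% of precursors at E14.5 and 2.34% at E13.5, and after thinning in 18.8% and 1.20%. In Csf1r+ Cx3cr1+ cells, which should also lack the gene, the shares were 38.7% and 2.34% at median depths of 27239 and 27499 UMIs, and 18.7% and 0.734% after thinning. Summed Igll1 was 112 CPM at E14.5 and 3.75 CPM at E13.5 in those cells, and 1667 and 853 CPM in B lineage cells. The thinned share in precursors at E14.5 was thus close to that in another myeloid type of the same library. Within the precursors Igll1 was uneven, with a higher summed CPM at E14.5 in those with an Il7r UMI than in those without. The source of the Igll1 UMIs in precursors was not tested.

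Precursors with 5 or more UMIs over the B lineage list were 66 cells (41.3%) at E14.5 and 61 cells (23.7%) at E13.5. They were deep, with medians of 28498 and 31564 UMIs against 17705.5 and 18840.5 UMIs in the other precursors, and Scrublet marked 25.8% and 32.8% of them against 3.19% and 3.06% of the others. Without them, 13 genes were past 2-fold higher at E14.5 in place of 22, a number that the filter on B lineage UMIs itself lowers. Elane was then at 1.16, Ctsg at 1.05 and Mpo at -0.40. Elane and Ctsg differed between the stages by as much without these cells, and Mpo by less.

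**Figure D4:**
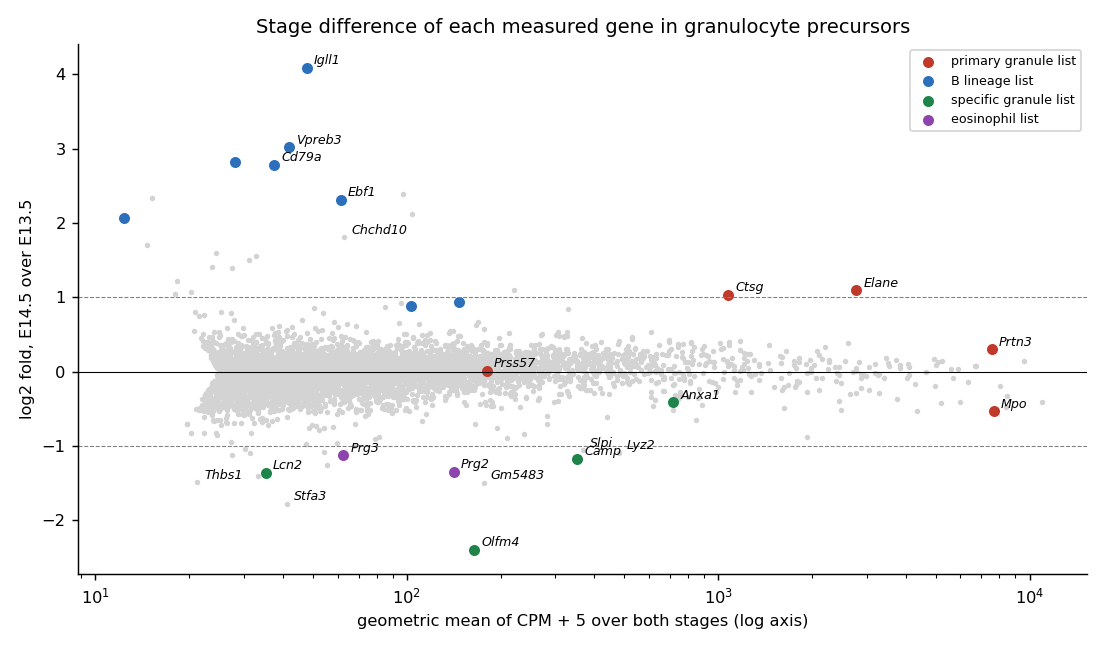
Log2 fold, E14.5 over E13.5, of each of 5690 measured genes in the precursors against the geometric mean of CPM plus 5 over both stages on a log axis, with dashed lines at 2-fold and 4 gene lists in colour. Elane at 1.10 and Ctsg at 1.03 lie just above the upper line among abundant genes, Mpo at -0.53 below 0, Igll1 at 4.08 at the top and Olfm4 at -2.40 at the bottom.

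Markers of further cell types were checked over their whole lists. No erythroid, megakaryocyte or hepatocyte gene reached 20 CPM: the 11 erythroid genes summed to 0.848 CPM at E14.5 and 2.94 CPM at E13.5, the 5 megakaryocyte genes to 7.07 and 18.7 CPM and the 8 hepatocyte genes to 17.8 and 19.2 CPM. Of 8 mast and basophil genes 2 were measured, Hdc and Cpa3, with a list sum of 303 CPM at E14.5 and 323 CPM at E13.5, while basophil-lineage cells of the same libraries had 7652 and 6473 CPM. Of 12 monocyte and dendritic genes 6 were measured, 5 higher and 1 lower, with a median of 0.30 and sums of 489 and 441 CPM. 2 of the 6 passed the minimum through E14.5 only, and the median was -0.02 with cells of equal weight, 0.0088 without the cells of 5 or more B lineage UMIs and 0.0126 with limits of 1 Elane and 2 Mpo UMIs. Ms4a6c was at 0.66. Ccr2, the chemokine receptor of monocytes, was at 0.53 and below 0 in 4 of 19 alternatives. In the stem and multipotent list 5 of 12 genes were measured, all lower, with a median of -0.31. Of the 9 lymphoid priming genes 4 were measured, and Dntt, the terminal transferase gene, had no UMI. Of 10 innate lymphoid and T cell genes 1 was measured, with list sums of 66.2 and 99.2 CPM, and of 7 class II genes 1 was measured. The interferon response list had 3 of 12 genes measured, all higher with a median of 0.34, which was -0.07 without the cells of 2 or more Irf8 UMIs and 0.27 in all other kept barcodes, and the immediate early and heat shock list had 6 higher and 6 lower of 12 measured, with a median of 0.01.

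The remaining genes among the 12 lowest at E14.5 were Thbs1, the thrombospondin gene, with 7.64 CPM at E14.5 and 30.4 CPM at E13.5 (log2 fold -1.49), the myeloid lectin gene Cd33 with 15.6 and 49.2 CPM (-1.40), the actin-bundling gene Fscn1 with 13.6 and 35.4 CPM (-1.12) and Ikzf2, the Helios gene, with 16.4 and 40.8 CPM (-1.10). All 4 were under 20 CPM at E14.5 and counted as measured through E13.5. Lower levels at E14.5 were also found in other cells. The log2 fold of Cd33 was -1.32 in all other kept barcodes, -1.04 in B lineage cells and -0.86 in Csf1r+ Cx3cr1+ cells. Fscn1 was at -1.20 in all other kept barcodes and between -1.24 and -0.82 in the other 3 kinds of cell. Thbs1 and Ikzf2 were at -0.02 and -0.09 in all other kept barcodes. In B lineage cells, however, Ikzf2 was at -0.93, beside -0.15 in Csf1r+ Cx3cr1+ cells and 0.11 in basophil-lineage cells. Thbs1 was at -0.03, -0.21 and -0.04 in these 3 kinds of cell.

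The eosinophil list was concentrated in a few precursors. Prg2 (chr2:84980461-84983632) had 83.7 CPM at E14.5 and 220 CPM at E13.5 (log2 fold -1.35), and Prg3, its paralog, had 37.3 and 87.1 CPM (-1.12). Eosinophil peroxidase (Epx) had 1.41 and 2.25 CPM, so 2 of 5 listed genes were measured. A single precursor held up to 125 Prg2 UMIs at E14.5 and up to 505 at E13.5. When each cell was given equal weight the log2 fold was 0.23 for Prg2 and 0.06 for Prg3. Siglecf, whose product is a surface lectin of eosinophils, had 30.8 and 80.3 CPM (-1.26). It was not limited to few cells: of precursors without a Prg2 or Prg3 UMI, 39.1% at E14.5 and 55.6% at E13.5 had one of Siglecf. Its log2 fold was -0.86 in basophil-lineage cells, -0.44 in B lineage cells, -0.15 in Csf1r+ Cx3cr1+ cells and -0.24 in all other kept barcodes.

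Precursors with at least 2 UMIs of Prg2 and Prg3 together, a group drawn after the data had been seen, were 15 cells (9.38%) at E14.5 and 36 cells (14.01%) at E13.5. They held 421 CPM of Cebpe at E14.5 and 503 CPM at E13.5, against 160 and 215 CPM in precursors without Prg2 or Prg3. The granule membrane tetraspanin Cd63 had 1458 and 1712 CPM against 585 and 671 CPM. Hdc, histidine decarboxylase, had 504 and 616 CPM against 174 and 191 CPM, and Irf8 had 13.2 and 33.2 CPM against 142 and 181 CPM. Against precursors without Prg2 or Prg3, these cells were thus high in Cebpe, Cd63 and Hdc and low in Irf8 at both stages. Such levels were not particular to them. Precursors without an Irf8 UMI had 294 and 420 CPM of Cebpe, 1023 and 1322 CPM of Cd63 and 342 and 430 CPM of Hdc. Cells with 2 or more Camp UMIs had 300 and 436 CPM of Cebpe and 912 and 1207 CPM of Cd63. They had 217 and 265 CPM of Hdc and 18.4 and 41.2 CPM of Irf8.

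A larger division followed Irf8. The cells with 2 or more Irf8 UMIs, again drawn after the data had been seen, were 61 (38.1%) at E14.5 and 105 (40.9%) at E13.5, with median depths of 24180 and 23782 UMIs. The cells without an Irf8 UMI were 82 and 129, with 16909.5 and 18664 UMIs. In the Irf8 cells monocyte genes were higher: Csf1r, the receptor of macrophage colony-stimulating factor, had 92.3 CPM at E14.5 and 116 CPM at E13.5 against 15.1 and 24.9 CPM. Klf4 had 86.2 and 56.1 CPM against 10.5 and 5.14 CPM, Ly86 had 125 and 114 CPM against 25.7 and 26.5 CPM, and Ms4a6c had 195 and 121 CPM against 40.1 and 20.95 CPM. F13a1, the coagulation factor XIII subunit of monocytes, had 251 and 224 CPM against 107 and 85.8 CPM.

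Granulocyte genes ran the other way in the same cells. Gfi1 had 33.2 CPM at E14.5 and 13.03 CPM at E13.5 in Irf8 cells, against 86.2 and 89.4 CPM in cells without Irf8. Cebpe had 98.3 and 131 CPM against 294 and 420 CPM, and Ms4a3 had 508 and 371 CPM against 1490 and 1257 CPM. Elane had 2376 and 1157 CPM against 5745 and 2713 CPM, and S100a8 had 886 and 1313 CPM against 3371 and 4867 CPM. Within each class Elane was higher at E14.5. Scrublet marked 14.8% of the Irf8 cells at E14.5 and 13.3% at E13.5, against 9.76% and 6.98% of cells without Irf8. The Irf8 cells with 5 or more B lineage UMIs were 36 of 61 at E14.5 and 36 of 105 at E13.5, while such cells made up 41.3% and 23.7% of all precursors. The part of depth, doublets or B lineage transcripts in the division was not tested.

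Cells with 2 or more Camp UMIs, a further group drawn after the data had been seen, were 18 (11.3%) at E14.5 and 48 (18.7%) at E13.5. They carried more of some late neutrophil and secondary granule transcripts. They had 8990 CPM of S100a8 at E14.5 and 9480 CPM at E13.5, against 1338 and 1561 CPM in precursors without Camp. S100a9 had 9734 and 11240 CPM against 548 and 767 CPM, Lcn2 had 110 and 249 CPM against 7.23 and 8.56 CPM, and Ngp had 9.19 and 82.4 CPM against 0 in both. An Ngp UMI was in only 5.56% and 16.7% of the Camp cells, and lactoferrin (Ltf) had 1 and 2 UMIs in them. Pglyrp1, a peptidoglycan recognition protein of granules, had 732 and 791 CPM against 127 and 126 CPM. Elane, which the rule required in every cell, had 8414 and 2861 CPM against 3545 and 1628 CPM. Cd34 was low, at 33.7 and 163 CPM against 188 and 345 CPM. The Irf8 class shared 2 cells at E14.5 and 3 at E13.5 with the Camp class, and 1 and 5 with the Prg2 and Prg3 class. The Camp class shared 2 and 9 cells with the Prg2 and Prg3 class, 9 of its 48 cells and of the other's 36 at E13.5. In none of the 3 classes were 71 and 85 precursors.

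Precursors were also ordered by the share of their UMIs that came from Mpo, Elane, Prtn3 and Ctsg and cut into 4 bins of 40 cells at E14.5 and 64 or 65 at E13.5. The median share in bins 1 to 4 was 0.807, 1.99, 2.71 and 3.50% at E14.5, against 0.986, 1.77, 2.36 and 3.11% at E13.5. Depth ran against it, with median UMIs of 30533.5, 21594.5, 18284 and 15109.5 at E14.5, against 28519, 22180, 18735.5 and 17183 at E13.5. The progenitor genes Flt3 and Hmga2 were highest in the bin with the least granule share. Flt3, the receptor kinase of multipotent and lymphoid progenitors, had 59.96, 18.7, 1.39 and 3.13 CPM over bins 1 to 4 at E14.5, against 81.2, 24.5, 4.77 and 3.42 CPM at E13.5. Hmga2, a chromatin protein of fetal stem cells, had 290, 93.7, 58.2 and 15.6 CPM at E14.5, against 467, 97.3, 46.1 and 24.0 CPM at E13.5. Both genes were much higher in the precursors with 5 or more B lineage UMIs than in the others. Flt3 had 47.5 CPM at E14.5 and 81.6 CPM at E13.5 in those cells, against 4.22 and 10.3 CPM in the others. Hmga2 had 242 and 442 CPM against 31.3 and 64.4 CPM.

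Irf8 and the genes of the granulocyte branch were ordered in opposite ways along the bins. Irf8 had 194, 136, 63.7 and 43.8 CPM at E14.5, against 261, 173, 82.7 and 43.6 CPM at E13.5. Gfi1 had 22.9, 55.1, 88.7 and 101.7 CPM at E14.5, against 15.5, 30.8, 67.6 and 107.8 CPM at E13.5. Ms4a3 had 317, 979, 1387 and 1999 CPM at E14.5, against 221, 570, 1114 and 1659 CPM at E13.5. Serglycin (Srgn), the matrix that holds the proteases, had 1496, 2482, 3501 and 4880 CPM at E14.5, against 1207, 2628, 3830 and 4324 CPM at E13.5. Every one of these orders was found in both libraries. The B lineage list also lay in the first bins, with 1912, 865, 123 and 264 CPM at E14.5, against 460, 164, 86.7 and 80.4 CPM at E13.5, and Il7r had 63.9, 22.0, 2.77 and 12.5 CPM at E14.5, against 65.2, 17.5, 3.98 and 1.71 CPM at E13.5. Their part in the progenitor genes of bin 1 was not tested.

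**Figure D5:**
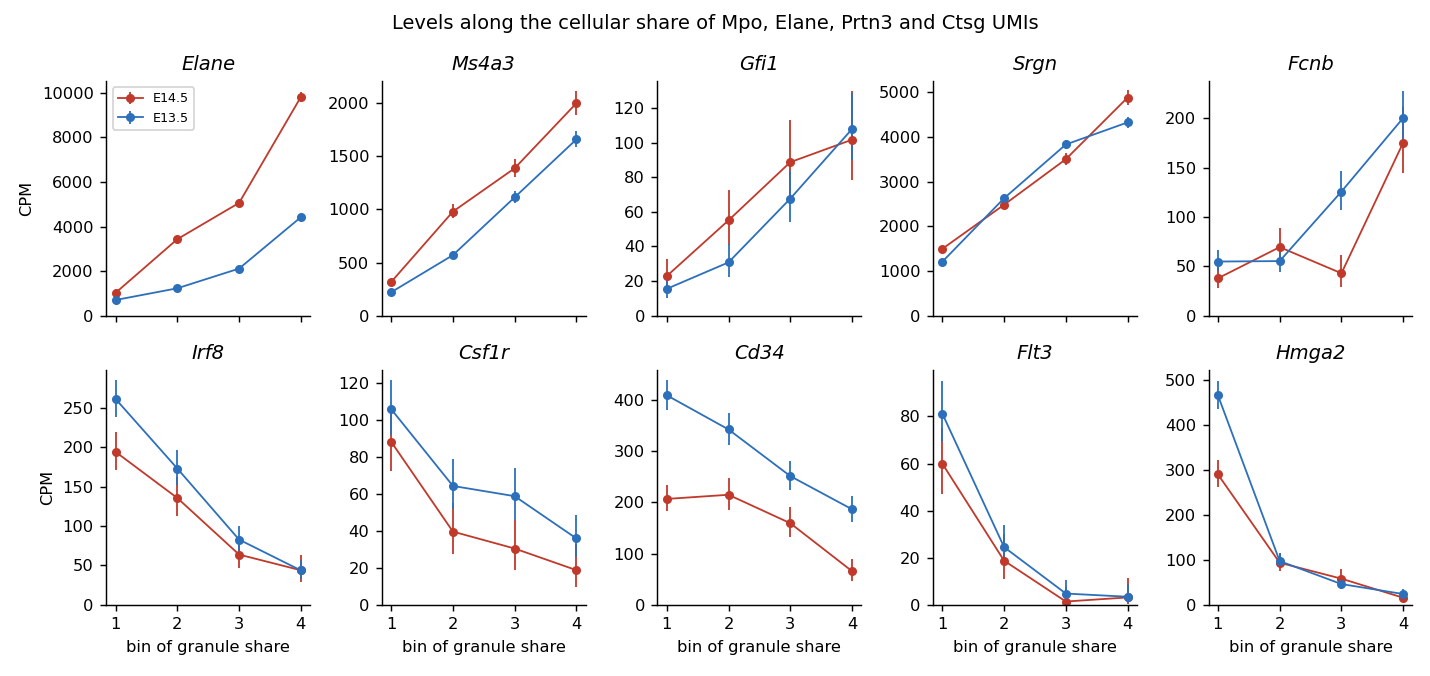
CPM of 10 genes in 4 bins of precursors ordered by the share of Mpo, Elane, Prtn3 and Ctsg UMIs, E14.5 in red and E13.5 in blue, with exact Poisson 95% intervals. Elane is one of the genes that set the bins; Ms4a3, Gfi1 and Srgn are higher in each next bin at both stages, and Irf8, Csf1r and Hmga2 are lower in each next bin.

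Across single cells thinned to 8000 UMIs, 149 at E14.5 and 250 at E13.5, transcripts paired in the same way. These Pearson correlations of log levels are descriptions over cells that share a library. Elane correlated with Prtn3 at 0.84 at E14.5 and 0.66 at E13.5, with Ms4a3 at 0.81 and 0.62, with Ctsg at 0.72 and 0.45, and with Mpo at 0.64 and 0.43. All 4 values were higher at E14.5, a difference that was not tested. Irf8 correlated with Ms4a3 at -0.54 and -0.51 and with Cebpe at -0.43 and -0.45, while it correlated with Ly86 at 0.54 and 0.39 and with Csf1r at 0.43 and 0.36. S100a8 and S100a9 stood at 0.83 and 0.86, the closest of those named at E13.5, and Prg2 and Prg3 stood at 0.64 and 0.70.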

How the data were processed

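Raw UMI counts for 4 libraries, not normalized by the authors, were analysed as deposited. They came from Cell Ranger 3 with mm10 as genome, per the submitters' processing notes, and from release 3.0.0 for fetal liver, per the file headers. Which gene models were used is not given in the sources used here. Positions are from GENCODE M21 on GRCm38, which held 30934 of 31053 feature IDs, and UMIs of 36 IDs that share a symbol were summed.

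The precursors, gene lists and comparison cells were chosen with earlier results of these data known. Csf1r+ Cx3cr1+ cells had at least 2 Csf1r and 1 Cx3cr1 UMIs, basophil-lineage cells at least 2 Mcpt8 and 1 Gata2 UMIs, and B lineage cells at least 2 Cd79a UMIs and at least 2 UMIs of Igll1 and Vpreb1 together, in barcodes that were no precursors. Counts were summed per library and given as CPM with exact Poisson 95% intervals, and shares of cells with exact Clopper-Pearson intervals. Genes with 20 CPM or more at either stage counted as measured. Log2 folds were taken after adding 5 CPM, which understates folds of low genes, and the median of all measured genes was taken off. Cells are no replicates, so no significance test was made. Named were measured genes of the 27 lists by role, the 12 highest and 12 lowest stage folds, and the 20 leading genes over other barcodes at 50 CPM or more in both stages. Genes of the class and bin descriptions were picked after their values were seen.

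For shares and correlations each cell was also thinned to 8000 UMIs, with shallower cells left out, 11 at E14.5 and 7 at E13.5 among the precursors. Doublets were marked per library with Scrublet in scanpy 1.11.5 at its automatic threshold and kept, with their removal as an alternative. Alternatives changed the barcode filter, the UMI limits, the cells included, the pseudocount, the minimum CPM and the scaling, for which edgeR 4.0.16 gave TMM factors of 0.998 at E14.5 and 1.002 at E13.5. The fold computation was checked on simulated counts. Python 3.11.15, numpy 2.4.6, scipy 1.17.1, pandas 2.3.3 and matplotlib 3.10.9 were used.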

Additional observations from a re-analysis of the deposited data

How the results depend on the processing

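No paired analysis was possible because there is 1 library per stage and the labels give no shared replicate numbers. For the same reason no replicate could be left out. Up to 19 alternatives were computed per result. Elane was past 2-fold higher at E14.5 in all 19 (log2 fold 1.03 to 1.47) and Ctsg in 15 (0.88 to 1.36), while Mpo ranged over -0.56 to -0.35, Prtn3 over 0.21 to 0.56 and Olfm4 over -2.76 to -2.01. Among 189 named genes 83 changed sign in at least 1 alternative, as did 12 of 19 list medians, most of them close to 0. Of these genes 4 were past 2-fold as reported: Camp (0.18 without cells holding 2 Camp UMIs, a value that the filter on Camp sets), Lyz2 (0.0167 in precursors with an Il7r UMI) and, with cells of equal weight, Prg2 (0.23) and Prg3 (0.0611). Classes drawn on Irf8, Camp and Prg2 and the choice by Prtn3 and Ms4a3 were added after the data had been seen. Depth limits the weakly expressed genes most.

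The share of precursors was 2.44% at E14.5 and 3.98% at E13.5 with 1 Elane and 2 Mpo UMIs, 0.803% and 1.84% without cells of 5 B lineage UMIs, and 0.393% and 0.479% for cells with Il7r. At E13.5 it was 2.11% with 5 Elane and 10 Mpo UMIs and 2.91% under the stricter barcode filter. Genes past 2-fold numbered 13 higher without the B lineage cells, 45 with no minimum CPM and 12 at 50 CPM, 42 higher and 36 lower in Il7r cells, and lower 10 with 1 Elane and 2 Mpo UMIs, 34 without Irf8 cells and 9 without Camp cells. None of the causes was tested.

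List medians that moved are given by setting. With 1 Elane and 2 Mpo UMIs they were 0.21 for primary granule, -0.60 for late neutrophil, 0.0126 for monocyte and dendritic, 0.26 for lymphoid priming and 0.0808 for interferon response. With 5 Elane and 10 Mpo UMIs specific granule was at -1.01. Under the rule after thinning primary granule was at 0.33, specific granule at -1.01, B lineage at 3.05 and fetal program at -0.57. Under the stricter barcode filter primary granule was at 0.43 and specific granule at -0.40. Without the B lineage cells primary granule was at 0.36, monocyte and dendritic at 0.0088, stem and multipotent progenitor at -0.63, B lineage at 0.12 (set by the filter on its own genes), chaperones at 0.41 and fetal program at -0.67. In Il7r cells primary granule was at 0.56, granule processing at 0.014, specific granule at -2.57, early progenitor at 0.21, stem at -0.78, B lineage at 2.24, chaperones at 0.10, interferon at 0.0106 and glycolysis at 0.0569. Without Irf8 cells granule processing was at -0.33, specific granule at -1.65, monocyte and dendritic at 0.0468, B lineage at 2.16 and interferon at -0.0682. Without Prg2 and Prg3 cells late neutrophil was at -0.55. By Prtn3 and Ms4a3 primary granule was at 0.35 and interferon at 0.0502. With cells of equal weight monocyte and dendritic was at -0.0202. With no minimum CPM specific granule was at -0.77, late neutrophil at 0.17, B lineage at 2.21 and interferon at 0.068, and at 50 CPM primary granule was at 0.27 and late neutrophil at -0.55. A pseudocount of 1 CPM gave B lineage 3.29 and 10 CPM gave 2.24.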
